A study of Mus musculus with 17 samples.

Results

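GABA12 is 1 of 18 clusters of inhibitory neurons that the depositors named among single cells of the mouse hypothalamus. Its members are the 62 cells to which the deposited cluster table gives that name, and 14375 other cells were annotated. GABA12 thus made up 0.429% of all annotated cells and 4.45% of the 1392 cells in GABA clusters. The cells came from 8 B6D2F1 mice, a hybrid of C57BL6 females and DBA2 males: 5 fed normally and 3 deprived of food for 24 h. No allele or transgene is named for either group, and the labels used here give neither age nor sex. RNA was counted by Drop-seq, a droplet method that tags each captured transcript with a barcode for its cell and a molecular tag (UMI), so that molecules can be counted. Levels are counts scaled to the total UMIs of the cells named, in the usual unit CPM. The labels do not say which mice, if any, were littermates.

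GABAergic neurons make their transmitter from glutamate with the decarboxylases encoded by Gad1 and Gad2, and load it into vesicles with the transporter encoded by Slc32a1. In the hypothalamus they are often told apart by a neuropeptide that they release as well, and by transcription factors kept from development. The gene that led GABA12, Crabp1, encodes a small cytosolic protein that binds retinoic acid, the vitamin A derivative that acts through the nuclear receptors RAR and RXR.

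GABA12 had cells in all 8 mice. Normal replicates 1 to 5 gave 5, 2, 5, 5 and 24 cells, and food-deprived replicates 1 to 3 gave 5, 7 and 9. Normal replicate 5 thus held 38.7% of GABA12, against 17.8% of the 1330 other GABA cells. The 62 cells carried 346874 UMIs in all, from 888 to 27112 per cell with a median of 4660.5 and a median of 2374 genes, and the median of the other GABA cells was 3789.5 UMIs and 2034 genes. Values per mouse are over the 7 mice with at least 5 GABA12 cells, which leaves out normal replicate 2. In these 7 mice 3 UMIs, the most that a count of 0 allows, correspond to 27.7 to 124 CPM.

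The 17 libraries were of 2 kinds that the study's groups do not explain. In 9 libraries Gapdh, a housekeeping gene, was at 4.36 to 8.45 CPM over all annotated cells, and in the other 8 it was at 149 to 812 CPM. The high-Gapdh libraries held 74.2% of GABA12 cells and 47.7% of the other GABA cells. Of all annotated cells, 161 had a barcode that occurs in more than 1 library of their mouse. A pair of GABA12 cells in normal replicate 4 was among them, with 2164 and 9792 UMIs, and 930 of the 1326 genes seen in the smaller were also seen in the larger. No GABA12 barcode occurred in a library of another mouse. No doublet caller was run.

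The transmitter genes of GABAergic neurons were present in most members. At least 1 UMI of Gad1, Gad2 or Slc32a1 was present in 56 of the 62 cells, and 28 cells had all 3 genes. Gad1 had a UMI in 79.0% of cells (95% exact binomial interval 66.8 to 88.3%), against 2.46% of the cells of MO, the cluster led by oligodendrocyte genes (median 2187 UMIs per cell), which gives the background. Over the other GABA cells the share was 71.3%, but with each cell thinned to 1500 UMIs the order turned, with 32.1% in GABA12 (53 cells, the other 9 being too shallow) and 49.5% in the other GABA cells (1142 cells). The vesicular glutamate transporter genes were close to empty, with 1 UMI of Slc17a6, 1 of Slc17a8 and none of Slc17a7 in the 346874 UMIs.

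The 3 transmitter genes did not sit at the same place in the order of clusters. Gad2 was at 306 CPM in GABA12, the lowest of the 18 GABA clusters, and the next lowest stood at 492 CPM. Per mouse its level in GABA12 was 69.0, 167, 371 and 305 CPM in normal replicates 1, 3, 4 and 5 and 454, 210 and 571 CPM in the food-deprived mice. The other GABA cells of the same mice held 604, 1111, 1187 and 927 CPM and 1182, 981 and 662 CPM. Gad2 was lower in GABA12 in each of the 7 mice, and the highest GABA12 mouse lay below the lowest value of the other GABA cells. Slc32a1, at 268 CPM, ranked 16 of 18 and was also lower in all 7 mice, whereas Gad1, at 479 CPM against a mean of 593 CPM over the other 17 clusters, ranked 10 of 18 and was higher in 4 of the 7. Within GABA12, 36 cells had both decarboxylase genes, 13 had Gad1 alone and 3 had Gad2 alone. These comparisons of a cluster with the rest carry no test, since the clusters were made from the same counts.

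**Figure D1:**
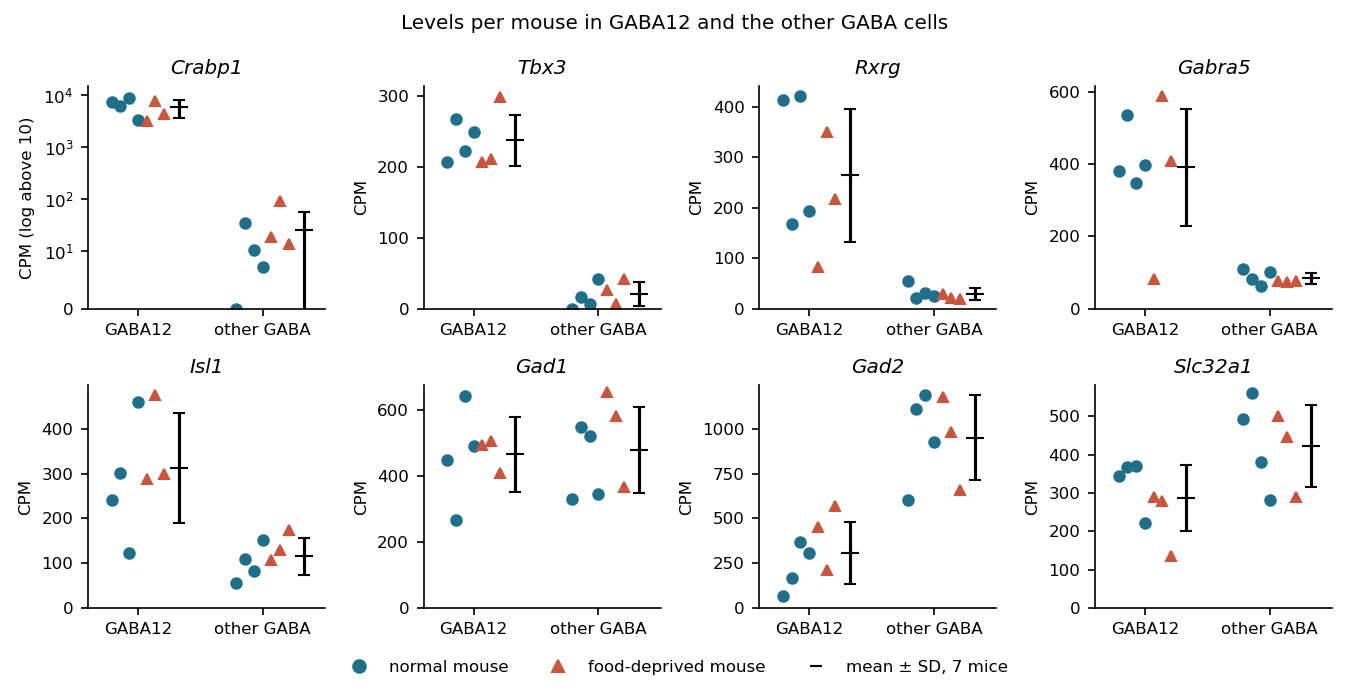
Levels in CPM of 8 genes in GABA12 and in the other GABA cells, with 1 point per mouse and the mean ± SD over 7 mice, the SD bar of Crabp1 being cut at 0 on an axis that is logarithmic above 10. Crabp1, Tbx3 and Rxrg were higher in GABA12 in every mouse, which the rule that chose them as leading genes required. Gad2 was lower in GABA12 in every mouse, and Gad1 overlapped.

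Crabp1 set GABA12 apart more than any other gene at 100 CPM or more in it that was higher in all 7 mice. It stood at 5599 CPM in GABA12 and at a mean of 55.5 CPM in the other 17 clusters. The next cluster, GABA4, was at 627 CPM, from 93 UMIs in 2 of its 18 cells. In the normal mice with enough cells the level was 7448, 6185, 8708 and 3370 CPM, and in the food-deprived mice 3134, 7701 and 4376 CPM (mean 5846 ± 2234, SD, n = 7 mice). The same mice held between 0 and 91.6 CPM in their other GABA cells, so the values of the 2 sets of cells did not overlap.

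Crabp1 was present in most GABA12 cells and in few others. A UMI was found in 57 of 62 cells (91.9%, 95% exact binomial interval 82.2 to 97.3%), in 2.93% of the other GABA cells, in 1.32% of the glutamatergic cells and in 0.480% of the MO cells. After the same thinning the share was 88.7% in GABA12 and 1.49% in the other GABA cells. GABA12 is 0.429% of annotated cells and held 78.8% of all 2465 Crabp1 UMIs. Of the 55 annotated cells with 10 or more Crabp1 UMIs, 46 were GABA12 cells.

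Cells of the cluster differed in how much Crabp1 they carried. The median cell had 16 UMIs and the highest 179. Normal replicate 5 was low, with 2 cells without a UMI, 9 with fewer than 10 and a median of 1935 CPM per cell, and food-deprived replicate 3 had a median of 2519 CPM. The medians of the other 6 mice lay between 4159 and 8458.5 CPM. The 5 cells without Crabp1 had a median of 1947 UMIs against 4763 in the other 57, but 1 of them, in food-deprived replicate 1, had 6646. Those 5 cells together held 6 UMIs of Gad1 in 4 cells and 1 UMI of Tbx3.

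**Figure D2:**
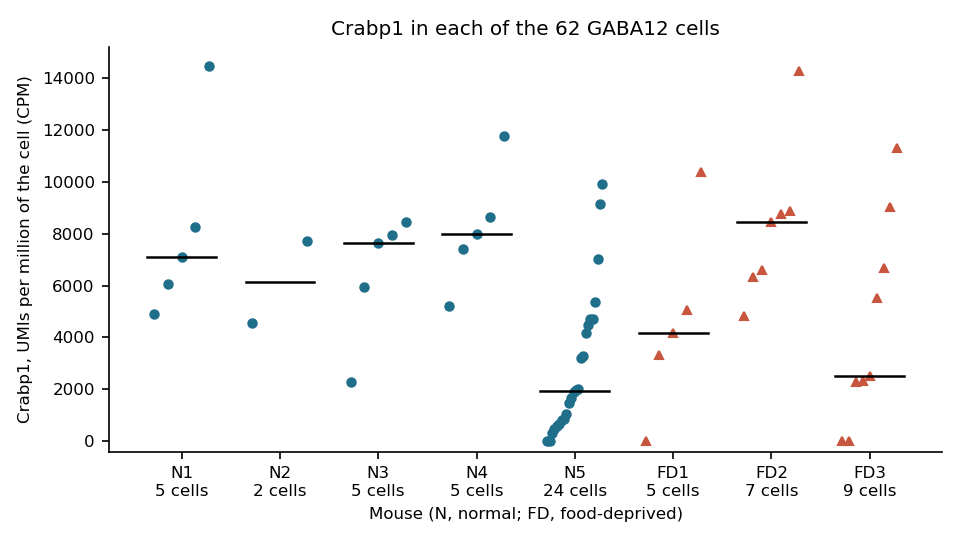
Crabp1 in CPM in each of the 62 GABA12 cells (points), by mouse (N, normal; FD, food-deprived), with black lines at the median. The medians are lowest in normal replicate 5 (1935 CPM) and food-deprived replicate 3 (2519 CPM), and the highest cell of every mouse is at 7711 CPM or more.

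Other genes of retinoic acid handling were looked at in a list of 19 that was put together after Crabp1 had been seen to lead, and it is given as a description. Rxrg, a retinoid X receptor, was the other strong member. It stood at 414, 167, 421 and 194 CPM in the normal mice and at 82.5, 351 and 217 CPM in the food-deprived mice, and at 19.4 to 54.9 CPM in their other GABA cells. At 262 CPM over all cells it was the highest of the 18 clusters, with GABA7 next at 187 CPM. Cyp26b1, an enzyme that degrades retinoic acid, gave 13 UMIs in 6 cells (37.5 CPM), and the mean of the other clusters was 0.374 CPM. It was higher in 6 of 7 mice. Aldh1a1, which makes retinoic acid, gave 10 UMIs in 6 cells, and Rarb, a retinoic acid receptor, 11 UMIs in 7. Crabp2 had 3 UMIs, and Rxra, Aldh1a2, Aldh1a3, Cyp26a1, Stra6 and Lrat had none, which allows up to 8.65 CPM for each. Thrb, a thyroid hormone receptor that pairs with RXR, was highest in GABA12 at 124 CPM, with GABA7 close behind at 117 CPM. It was higher than in the other GABA cells in 5 of 7 mice. Its levels were uneven, at 103, 0, 99.0 and 36.9 CPM in the normal mice and 0, 379 and 136 CPM in the food-deprived mice.

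Several transcription factors of the ventral hypothalamus marked the cluster. Tbx3, a T-box factor of the arcuate region, was at 234 CPM against a mean of 17.8 CPM in the other clusters, and GABA15, the cluster with Agrp and Npy, was next at 152 CPM. It was the steadiest of the leading genes, at 207, 267, 223 and 249 CPM in the normal mice and 206, 210 and 299 CPM in the food-deprived mice. A Tbx3 UMI was found in 61.3% of GABA12 cells, 6.39% of the other GABA cells and 0.537% of MO cells, and after thinning in 41.5, 1.84 and 0.299%. Clusters outside the GABA neurons also held it, with 8 of 17 cells named Hista (47.1%), 27.2% of those named Epith and 23.2% of those named Tany, and after thinning 7.69, 24.5 and 14.3%. Isl1, a LIM homeodomain factor, stood at 355 CPM, second to GABA7 at 386 CPM. Hmx3 was first at 164 CPM and GABA13 second at 143 CPM. The homeodomain genes Hmx2 (92.3 CPM), Gsx1 (86.5 CPM) and Nkx2-1 (77.8 CPM), all higher than in the other GABA cells in 7 of 7 mice, ranked 2, 3 and 2 of 18. Tcf7l2, a Wnt pathway factor, was at 69.2 CPM against 3.39 CPM, with 24 UMIs in 16 cells.

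Of the 115 regional transcription factors in the list, 27 reached 20 CPM in GABA12. At least 2-fold above the mean of the other clusters were 7, and at least 2-fold below it 28, with 10 CPM added to both sides. Over all 23284 genes the same counts were 7056, 175 and 467. The median of the members at 20 CPM on either side was -0.79 on the log2 scale, against 0.00 for all genes so chosen. Meis2 and Lhx1, both homeobox genes, had no UMI in GABA12, where the mean of the other clusters was 125 and 76.6 CPM. GABA12 ranked 10 of 18 for both, so other clusters had none either. The highest levels were 982 CPM of Meis2 in GABA3 and 809 CPM of Lhx1 in GABA9. Tcf4 and Lmo4 were low, at 28.8 and 14.4 CPM against 193 and 130 CPM. Isl1 and Tbx3 were found together in 27 cells, Isl1 alone in 9 and Tbx3 alone in 11.

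**Figure D3:**
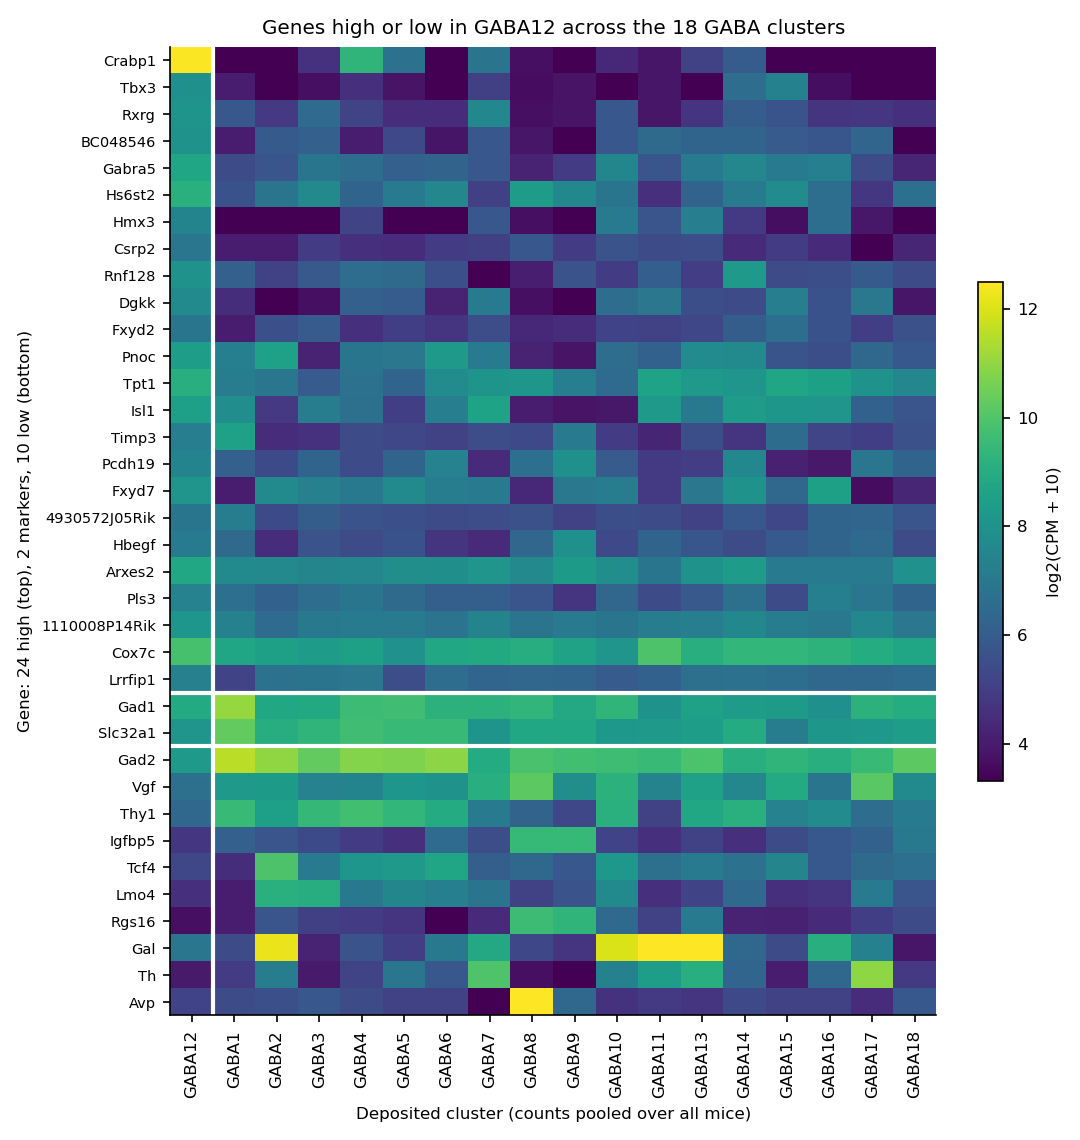
Level of 24 genes high in GABA12, the markers Gad1 and Slc32a1, and 10 genes low in GABA12 (rows) in each of the 18 GABA clusters (columns), as log2(CPM + 10) of counts pooled over mice, with the brightest colour for all values at or above the top of the scale. Crabp1 is bright in the GABA12 column and dark in most others, and Gad2 is darkest in GABA12.

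The heat map's upper block shows 24 of the 25 genes with the highest ratio to the mean of the other clusters among genes at 100 CPM or more in GABA12 and higher there than in the other GABA cells of each of the 7 mice. Of 2311 genes at that level, 83 were higher in all 7 mice. After Crabp1, Tbx3 and Rxrg the order was BC048546, Gabra5, Hs6st2, Hmx3, Csrp2, Rnf128 and Dgkk. A GABA12 cell had a UMI of 6 of the first 10 genes at the median, and an other GABA cell of 1. The genes were chosen from these same cells, so a gap of this kind follows from the choice. Hs6st2, a heparan sulfate sulfotransferase, was at 559 CPM against 116 CPM. Rnf128, an E3 ubiquitin ligase, was at 251 CPM, second to GABA14 at 294 CPM. Regulators of the sodium pump were among the rest, with Fxyd2 at 110 CPM and Fxyd7 at 268 CPM, against means of 31.3 and 120 CPM. Levels of some of the 25 moved with the kind of library. Tpt1 was at 525 CPM over all GABA12 cells and at 121 CPM in those of the low-Gapdh libraries, where the other GABA cells held 74.2 CPM. Cox7c, a respiratory chain subunit gene, was at 891 and 386 CPM, with 240 CPM in the other GABA cells of the low-Gapdh libraries. Crabp1 was at 5599 and 5883 CPM and so hardly moved. Vgll3, a transcription cofactor gene, had the second-highest ratio of all, with 190 CPM in GABA12 and 4.10 CPM in the others, but was absent from food-deprived replicate 1 and so not among the 25. The other 6 mice held 102 to 297 CPM.

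Among receptors, a GABA type A receptor subunit stood out. Gabra5, an alpha subunit linked to extrasynaptic receptors, was the highest of the 18 clusters at 415 CPM, against a mean of 77.1 CPM and 182 CPM in GABA14. It reached 379, 535, 346 and 397 CPM in the normal mice and 82.5, 589 and 408 CPM in the food-deprived mice, and 62.4 to 110 CPM in the other GABA cells. Food-deprived replicate 1 alone lay within the range of the other cells. Gabra3 (257 CPM) and Gabrg1 (144 CPM) ranked 3 and 4 of 18. Of the 20 GABA and glycine receptor genes listed, 11 reached 20 CPM, where 7056 of all 23284 genes did. The summed level of the 20 ranked 4 of 18.

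Of 55 peptide and hormone receptor genes, 13 reached 20 CPM and 23 had no UMI, where 7056 and 11315 of all 23284 genes did so. Their summed level was 787 CPM, against a mean of 795 CPM in the other clusters. Lepr, the leptin receptor gene, had no UMI, and its mean in the other clusters was 2.69 CPM. Mc4r, a melanocortin receptor, had 3 UMIs, Ghr and Esr1 1 each, and Insr, the insulin receptor, 7. The somatostatin receptor gene Sstr1 stood at 112 CPM, second of the 18 clusters, and Npr3, a natriuretic peptide clearance receptor, at 37.5 CPM against 2.62 CPM, with 13 UMIs in 6 cells. Prlr, the prolactin receptor, was uneven, between 0 and 330 CPM over the mice. The calcium-binding protein genes Calb2 (257 CPM) and Necab1 (141 CPM) were higher than in the other GABA cells in 7 and 6 of 7 mice, and Pvalb had no UMI.

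Neuropeptide precursor genes were low in sum. The summed level of the 47 genes listed as precursors, with Scg2 and Dlk1 counted among them, was 3713 CPM. It was the lowest of the 18 clusters by a narrow margin, where the others ran from 3854 to 28215 CPM. Scg2, a secretogranin, and Dlk1, a Notch ligand relative, were the most general of the list, at 1320 CPM with a UMI in 53 of 62 cells and at 703 CPM in 54 cells, and both were lower than in the other GABA cells in 7 of 7 mice. Of the 47, 22 were at least 2-fold below the mean of the other clusters and 2 at least 2-fold above it, where over all 23284 genes 467 were below and 175 above. No UMI was found for 21 of the 47 and for 11315 of the 23284. Vip and Nts had no UMI, against means of 707 and 168 CPM. Npy and Agrp, the orexigenic pair of GABA15, had 1 UMI each, and Sst had 6. Single clusters weigh on such means, as with 11807 CPM of Vip in GABA9 and 13964 CPM of Npy in GABA15. A peptide gene can thus lie below its mean in most clusters. GABA12 ranked 7 of 18 for Vip, 9 for Gal, 10 for Agrp, 13 for Sst, 14 for Nts and 15 for Npy. Gal had 39 UMIs in 8 cells, and 61.5% of them were from 1 cell of normal replicate 5. Vgf, a granin-like precursor, was at 95.1 CPM, the lowest of the 18 clusters.

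Pnoc, the precursor of nociceptin, was the peptide gene most raised in GABA12. It was at 340 CPM, second to GABA2 at 370 CPM, and at 379, 167, 371 and 259 CPM in the normal and 289, 631 and 81.5 CPM in the food-deprived mice. The other GABA cells held less in each mouse, 41.5 to 166 CPM, a range that includes the GABA12 value of food-deprived replicate 3. Pnoc is among the 25 leading genes, which were chosen as higher in all 7 mice, so this direction follows from the choice. Oprl1, the nociceptin receptor, was itself at 86.5 CPM and higher than in the other GABA cells in 6 of 7 mice. Cartpt, the precursor of the anorexigenic CART peptide, was at 701 CPM with 243 UMIs in 30 cells, and 30.9% of those came from 1 cell of normal replicate 5. Its level ranged from 0 CPM in normal replicate 4 to 1533 CPM in normal replicate 5. Cartpt and Pnoc were found together in 15 cells, Cartpt alone in 15, Pnoc alone in 15 and neither in 17. A Cartpt UMI was found in 48.4% of GABA12 cells, 25.3% of the other GABA cells and 4.07% of MO cells, and after thinning in 35.8, 18.9 and 2.54%. By level Cartpt was not raised in GABA12. It lay below the mean of the other clusters (1019 CPM), ranked 6 of 18 and was higher than in the other GABA cells in 2 of 7 mice.

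**Figure D4:**
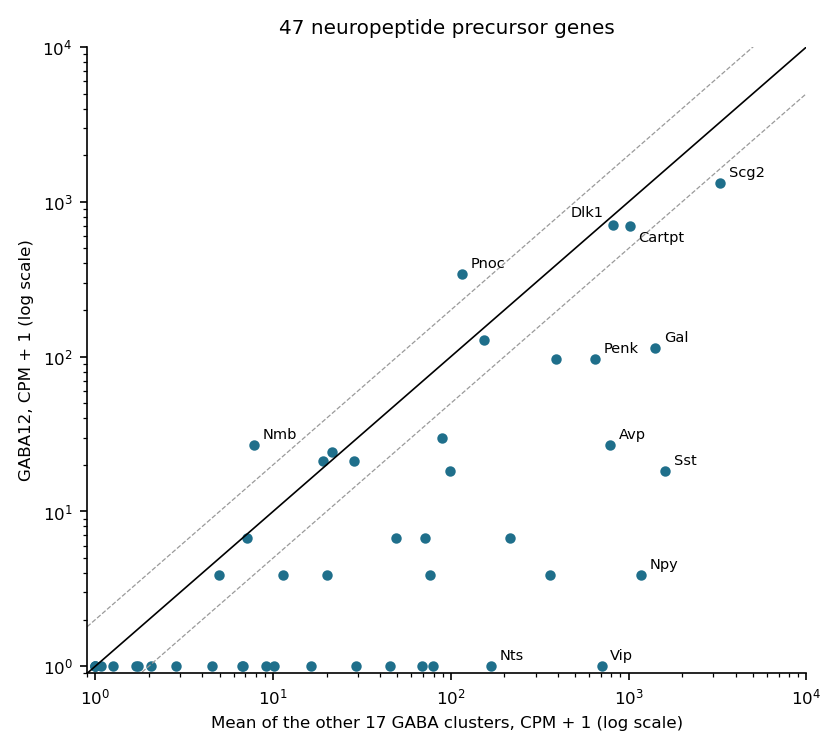
Level of 47 neuropeptide precursor genes in GABA12 against their mean over the other 17 GABA clusters, both as CPM + 1 on log axes, with equality as a solid line and 2-fold differences as dashed lines. Most genes lie below the lines, Vip and Nts at 0 in GABA12, and Pnoc lies above.

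Granule and neuronal genes were present. Of 12 genes for peptide processing and granules, 11 reached 20 CPM, where 7056 of all 23284 genes did. Pcsk1n led the 12 at 3555 CPM (rank 6 of 18), while Scg2 (1320 CPM) and Scg5 (923 CPM) ranked 17 and 18. The monoamine genes gave little: Th, the rate-limiting enzyme of dopamine synthesis, had 2 UMIs in 1 cell, and Ddc, the decarboxylase of the same pathway, was at 101 CPM. Snap25, a synaptic vesicle fusion gene, had a UMI in 83.9% of cells. Of 11 pan-neuronal genes 2 were at least 2-fold below the mean of the other clusters and 0 at least 2-fold above it, with a median of -0.30 (log2). Over all 23284 genes 467 were below and 175 above. Syt1, a vesicle calcium sensor, was at 274 CPM against 833 CPM, and Rbfox3, the gene of the neuronal marker NeuN, at 248 CPM against 195 CPM.

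Genes of most other cell types were low. Markers of myelinating oligodendrocytes, 9 of 9 detected, summed to 392 CPM, the lowest of the 18 clusters, with 240 to 793 CPM in the normal and 136 to 536 CPM in the food-deprived mice. Per mouse the sum exceeded that of the other GABA cells in normal replicates 1 (793 against 495 CPM) and 3 (736 against 723 CPM). In the rest of the 7 mice it was lower. For astrocytes 9 of 10 markers were detected, at 92.3 to 635 and 182 to 217 CPM. Microglial (2 of 10 detected), vascular (4 of 10), tanycyte and ependymal (4 of 10) and oligodendrocyte precursor (1 of 7) markers summed to at most 69.0 CPM in any of the 7 mice. Markers of the pars tuberalis, 3 of 6 detected, summed to 322 to 936 CPM in the normal and 337 to 734 CPM in the food-deprived mice, nearly all of it Chga, a granule gene that neurons also express, while Tshb and Pitx1 were at 0.

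The clusters most like GABA12 were GABA13, GABA15 and GABA14, with Spearman's rho of 0.891, 0.879 and 0.879 across 7057 genes at 50 CPM or more in any GABA cluster. These values describe genes measured in the same libraries and carry no test. Isl1 was at 121, 282 and 316 CPM in the 3, and GABA13 thus lay below the mean of the other 17 clusters (142 CPM). It was not particular to these 3, with 386 CPM in GABA7 and 296 CPM in GABA11. GABA13 shared Hmx3 and Hmx2 (143 and 83.4 CPM) but had no Tbx3 UMI and held Gal at 6751 CPM and Kiss1 at 1203 CPM. GABA15 and GABA14 shared Tbx3 (152 and 86.7 CPM) and had little Hmx3 (2.71 and 19.6 CPM). GABA15 was led by Npy at 13964 CPM and GABA14 by Sst at 9110 CPM, where GABA12 had 2.88 and 17.3 CPM. Crabp1 was the gene with the largest excess of GABA12 over each of the 3, which held 24.4, 0 and 53.1 CPM.

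Food deprivation for 24 h is known to activate hunger neurons of the arcuate nucleus, and the design asks whether GABA12 differed between the groups. The share of GABA cells that were GABA12 was 5.88, 2.48, 3.88 and 9.20% in normal replicates 2 to 5 and 1.57, 3.18 and 4.17% in the food-deprived mice. The groups overlapped. The means were 5.36 ± 2.92% (SD, n = 4) and 2.97 ± 1.31% (SD, n = 3), and the difference of -2.38 percentage points gave p = 0.286 in a two-sided exact permutation test, whose smallest possible p is 0.0286. Within the 2 batches that hold a mouse of each group, the differences were -0.903 and -0.694 points. Normal replicate 1, with 5 GABA12 cells among only 12 GABA cells (41.7%), fell under the minimum of 20 GABA cells.

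No gene passed an adjusted p of 0.05 within GABA12. edgeR's quasi-likelihood test over 4 normal and 3 food-deprived mice tested 902 genes and called 0%, and the smallest adjusted p was 1.00. DESeq2 also called 0. At an unadjusted p of 0.05, 15 genes (1.66%) were below in edgeR, 7 higher and 8 lower in the food-deprived mice, and 6 in DESeq2. In the other GABA cells of the same mice 0% of 9229 genes were called by edgeR and by DESeq2, with 192 and 17 genes under an unadjusted p of 0.05. With no filter on low counts 1 of 11942 genes passed in GABA12, Hspa1a (lower, adjusted p = 0.0265 in edgeR). With the batch as block 1 gene passed in the other GABA cells, Pvalb, and 0 in GABA12. Of the 25 leading genes 13 passed the filter on low counts, of which 6 were higher and 7 lower, with a median of -0.07 (log2) against -0.01 for all 902 genes.

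The marker genes gave these differences (log2 of food-deprived over normal, edgeR, none past the threshold). Crabp1 was at -0.32 ± 0.36 (SE), Rxrg at -0.25 ± 0.50, Isl1 at 0.28 ± 0.43, Gabra5 at -0.07 ± 0.45 and Cartpt at -0.48 ± 1.12. Gad1 was at -0.01 ± 0.33, Slc32a1 at -0.41 ± 0.39 and Gad2 at 0.64 ± 0.50. Tbx3 fell under the filter, and its means were 237 ± 27.0 CPM (SD, n = 4) and 239 ± 52.4 CPM (SD, n = 3). Agrp, Npy, Pomc and Plin4 also fell under it.

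Of the 15 genes with the smallest p, 14 are given here as values, none past the threshold. Gnai1, an inhibitory G protein subunit, was at 276, 301, 421 and 452 CPM in the normal and at 206, 168 and 109 CPM in the food-deprived mice (-1.24 ± 0.38, log2 ± SE). Ggnbp2, a zinc finger gene, was at 345, 401, 470 and 434 CPM against 165, 210 and 245 CPM (-0.99 ± 0.32). In both genes the 2 groups did not overlap, as was so for 39 of the 902 genes (4.32%). In the other GABA cells the same genes were at -0.03 ± 0.21 and -0.02 ± 0.23. Rgs4, a regulator of G protein signalling, was at -0.94 ± 0.35, and Cadm1, Gadd45g and Tax1bp1 were between -1.16 and -0.76. The genes with higher values were Itm2b (0.67 ± 0.24), Rabac1 (0.89 ± 0.32), Rps3, Eif3k, Prmt2 and 1700037H04Rik, from 0.67 to 0.89. Rps3 codes for a ribosomal protein and Eif3k for a translation initiation subunit.

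Among the 15 were 2 heat shock genes, both co-chaperones of Hsp70. Dnajb1 was at 1414, 702, 841 and 609 CPM in the normal mice and 124, 351 and 571 CPM in the food-deprived mice (-1.27 ± 0.44), and Dnaja1 at 690, 635, 940 and 600 against 371, 463 and 353 CPM (-0.83 ± 0.30). Neither overlapped between groups, and in 13 of the 902 genes (1.44%) all food-deprived mice lay below all normal mice. The summed level of 17 heat shock genes was 11310, 13574, 12296 and 16138 CPM in the normal mice and 7547, 9720 and 11280 CPM in the food-deprived mice, so that the groups did not overlap, by a narrow margin. Of these genes 9 were tested, 0 passed, 7 were lower and 2 higher, and their median was -0.42, against -0.01 for all genes. In the other GABA cells 16 of 16 tested were lower, with a median of -0.22, and 0 passed. Over all 9229 genes tested in those cells 4373 were lower, with a median of 0.02. Hspa5, a chaperone of the endoplasmic reticulum, was at -0.39 ± 0.27 in GABA12.

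Immediate early genes, which are induced within minutes by activity and by handling, also had lower values. Of 20 such genes 9 were tested, all 9 were lower, 0 passed, and the median was -0.59, where 465 of all 902 genes were lower with a median of -0.01. In the other GABA cells 13 of 18 were lower, with a median of -0.18, and 0 passed. Over all 9229 genes tested in those cells 4373 were lower, with a median of 0.02. The summed level of the 20 genes in GABA12 was 9034, 6787, 9846 and 4247 CPM in the normal mice. It was 1237, 7252 and 5056 CPM in the food-deprived mice, so that the groups overlapped. Food-deprived replicate 1 was the low one. Without it 6 of 9 were lower, with a median of -0.27. Without normal replicate 5, 8 of 8 were lower with a median of -1.01, and with the batch as block 10 of 10 with a median of -0.88. The block fit compares the groups only within batches 1 and 2, the batches with a mouse of each group. Food-deprived replicate 1 is the food-deprived mouse of batch 1, so the block value leans on it and is no separate check. Fos was at 2069, 2006, 2499 and 1274 CPM against 165, 1992 and 1984 CPM (-0.44 ± 0.52). In the other GABA cells of food-deprived replicate 1 the sum was 5160 CPM.

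**Figure D5:**
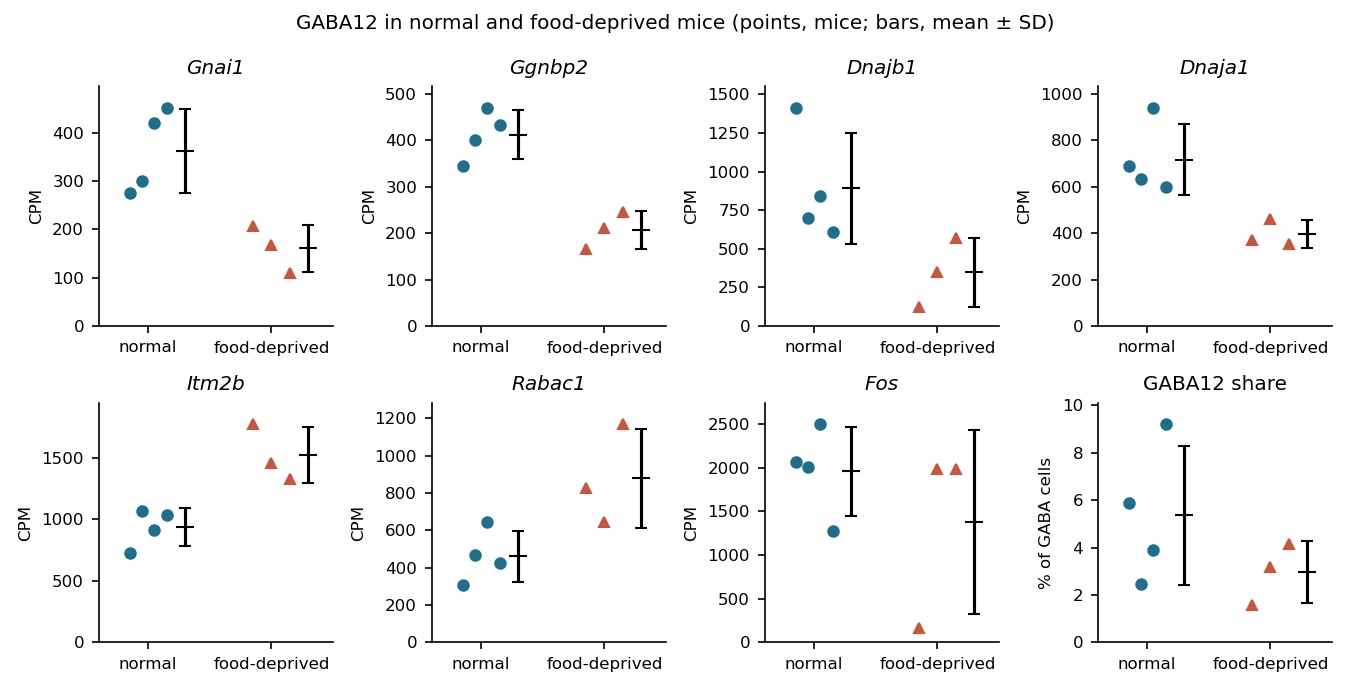
Level of 7 genes in GABA12 in CPM, and GABA12 as a percentage of GABA cells, in normal and food-deprived mice, with 1 point per mouse and the mean ± SD. Gnai1, Ggnbp2, Dnajb1, Dnaja1, Itm2b and Rabac1 do not overlap between groups, Fos and the share do, and no difference passed its test.

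Whether the difference in GABA12 was unlike that in the other GABA cells was tested as an interaction of cell class and feeding, with mouse as the block. edgeR called 0% of 3186 genes, with 83 under an unadjusted p of 0.05, and DESeq2 called 0, with 47. The smallest adjusted p in edgeR, 0.517, belonged to Avp, which had 9 UMIs in GABA12, all in normal mice. Crabp1 had the smallest p but 2, with a difference of -1.35 ± 0.39 (log2 ± SE, adjusted p = 0.999 in edgeR). It was made of -0.32 in GABA12 and 1.24 in the other GABA cells. In the latter its levels were 0 to 34.5 CPM in the normal and 13.8 to 91.6 CPM in the food-deprived mice. These levels rest on few cells: of the 208 Crabp1 UMIs in all other GABA cells, 92 came from 1 cell. Pcp4, a calmodulin regulator, had a difference of 1.09 ± 0.32. Without normal replicate 3, 3 genes passed, Avp, Crabp1 and Pcp4, and their adjusted p in edgeR was 0.0253, 0.00997 and 0.00997.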

How the data were processed

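The deposited tables hold raw UMI counts per gene and cell, whole numbers, and the authors' table of cluster names gives 1 name per cell. Per the submitters' processing notes the build was mm9. For the aligner and the counter: not given in the sources used here. The merged table of 17 libraries was used, and each of its cells equals 1 library table in every gene. Counts of GABA12 and of the other GABA cells were summed per mouse. The planned minimum of 10 GABA12 cells per mouse left 1 mouse, so the tests used the planned fallback of 5. For levels and for the choice of named genes a minimum of 10 was planned with no fallback, and 5 was used there too, a change made after cell numbers were seen: 12 of the 25 leading and 2 of the 10 low genes were the same as with the minimum of 10.

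Groups were compared with edgeR 4.0.16 (R 4.3.3; quasi-likelihood F test, two-sided, TMM factors, filterByExpr, Benjamini-Hochberg adjustment over all genes tested) and with DESeq2 1.42.0 as alternative. SEs are those implied by the F statistic. Shares were compared by an exact permutation test in mice with at least 20 GABA cells. The fitting code was tested on simulated counts. The mouse is the replicate. Total counts per mouse were 24247 to 108316 UMIs in GABA12, which with 7 mice sets the precision. Intervals and floors cover counting error only.

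Genes are named by rules: the 25 highest and 10 lowest ratios, the members of each list with the highest CPM and the highest or lowest ratio, the transmitter markers, the 15 smallest p and a few feeding and stress genes. Feeding hormone receptors, Cyp26b1, Aldh1a1, Rarb and other retinoid genes, Hmx2, Gsx1 and Nkx2-1 were added after their values were seen. The members and lists were chosen with earlier results of these data known. Batches 1 and 2 each pair a normal and a food-deprived mouse, per the labels. After removal of group means the paired mice correlated at 0.565 and 0.117 across the 902 genes. Normal and food-deprived mice of different batches correlated from -0.509 (normal replicate 3 with food-deprived replicate 3) to 0.468 (normal replicate 5 with food-deprived replicate 3). All GABA12 cells of normal replicates 1 and 5 and food-deprived replicate 3 came from high-Gapdh libraries. Those of normal replicate 3 and food-deprived replicate 1 all came from low-Gapdh libraries. Whether library kind shaped these correlations was not tested. Sequences were not used. A few genes that these rules name are not reported here.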

Additional observations from a re-analysis of the deposited data

Results flagged for a closer look

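Within the normal mice, 5 values stood apart from the rest of their group by Dixon's test, out of 53 groups examined, where chance flags about 1 in 20. The GABA12 share of GABA cells was 41.7% in normal replicate 1, which had 12 GABA cells, against 9.20% in the next mouse. Avp in GABA12 was at 99.0 CPM in normal replicate 4, against 34.5 CPM in the next. In normal replicate 5, the mouse with the most GABA12 UMIs, Tcf4 was at 64.6 CPM, Th at 18.5 CPM and Rgs16 at 9.23 CPM, and the other normal mice tested had no UMI of these genes. In them 3 UMIs correspond to 74.2 to 103 CPM, so a count of 0 allows levels as high as these, and the values of Th and Rgs16 rest on 2 and 1 UMIs.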

How the results depend on the processing

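Within GABA12 the count of genes past an adjusted p of 0.05 stayed at 0 with DESeq2, with the batch as a replicate block (1489 genes tested, 61 under an unadjusted p of 0.05), without each mouse in turn, without the shared barcodes (which drops normal replicate 4 under the minimum) and without the 5 deepest cells, a choice made after seeing the data. With no filter on low counts it was 1, Hspa1a. In the other GABA cells the count was 11 with no filter, 1 under the replicate block (Pvalb) and 0 to 1 without each mouse in turn, the 1 being Pvalb without food-deprived replicate 3. For the class by status term it was 0 to 3 without each mouse in turn, 0 under the replicate block and 0 with DESeq2 and with no filter. The replicate block changed no other call. The cause of these changes was not tested. The 15 genes with the smallest p kept their direction and stayed above the threshold in all 161 alternative values. These values reuse the counts that chose the genes, so the kept direction is no sign of stability. Fits in which a gene fell under the filter are not among the 161. The GABA12 share was lower in the food-deprived mice under all 12 alternatives. As a share of GABA cells the difference ran from -9.65 to -0.490 points. The first was for all 8 mice, added after seeing the data (p = 0.464 in the exact permutation test). The second was for low-Gapdh libraries alone, with means of 2.67% in 2 normal and 2.18% in 2 food-deprived mice. It gave p = 0.667 in the exact permutation test, whose smallest possible p there is 0.167. With all annotated cells as denominator, which is another scale, the difference was -0.398 points (p = 0.314 in the exact permutation test). Without each mouse in turn the share of GABA cells differed by -3.34 to -1.10 points. The alternatives for the levels of the 25 leading genes reuse the counts that chose them, so their direction there is no sign of stability. Fits with a minimum of 20 cells, or within low-Gapdh or high-Gapdh libraries alone, were not run, since at most 2 mice against 1 remained. The depth per mouse left 12 of the 25 leading genes untested.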
